A study of Drosophila melanogaster with 8 samples.

Results

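The chromatin regulators E(bx), simj, JIL-1, gpp, Art4, E(Pc), Asx and HIPP1 have alternative poly(A) sites that were counted by 3' end sequencing in bam mutant testes of Drosophila melanogaster. They were taken by gene symbol from the deposited count tables, whatever their result, and each transcript entry was kept apart. The 8 genes gave 9 of the 529 entries and 20 of the 1082 counted windows, since E(bx) has 2 entries. All counted windows end at sites of a list supplied by the authors, whose name sets bam against spermatocytes. A share of all entries given below is therefore a share of that list, not of all genes. All 9 entries had enough reads for the tests of site usage (516 entries tested) and of summed reads (523 tested). Of the 20 windows, 19 could be tested alone, and the proximal window of gpp had too few reads.

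Each of the 4 groups had 2 libraries, and each library held RNA from about 150 pooled pairs of testes. All males carried nosGal4 over Y and, on the third chromosome, bam86,bamGal4 over bam1, so the controls were bam mutants under both Gal4 drivers too. The controls had no UAS transgene (+/+), and the others carried 1 copy of UAS>cbc-V5, of UAS>PCF11-RF-HA, or of the combined insertion UAS>cbc-V5+PCF11-RF-HA, called "both" here, so that "under cbc", "under PCF11" and "under both" name the overexpression genotypes. A difference from the controls therefore cannot be told apart from an effect of carrying a transgene. Crosses stayed 3 days at 25 °C and the progeny was moved to 29 °C; no label gives the age at dissection. Germ cells without bam keep dividing as spermatogonia, and nosGal4 and bamGal4 drive expression in early germ cells, while somatic cells of the testis remain. In such bulk samples, fewer cells of a type and less RNA per cell cannot be told apart.

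A nascent transcript is cut at a poly(A) site and given its tail there, and a gene with several such sites can end its mRNA early (proximal) or late (distal). Cbc and PCF11, the fly Clp1 and Pcf11, belong to the machinery that cuts the transcript. The longer 3' UTR of a distal mRNA can hold more binding sites for microRNAs and RNA-binding proteins, while a site upstream of coding sequence changes the protein. The regulators studied here move nucleosomes, mark histones, or act with the Polycomb proteins that keep developmental genes silent and that shape gene expression in germ cells.

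Between 238162 and 333675 reads fell on the listed sites of a library, of which 3304 to 4795 (1.14% to 1.54%) were on the 8 genes. Those totals cover listed sites and are not the sequencing depth. Duplicates differed by more than counting error, with a chi-square of 6.02 to 13.4 per degree of freedom. The labels call them duplicates without naming separate cultures, so a p-value here measures the spread between libraries that may be technical. Few cell type markers were among the entries: zfh1 and chinmo of 5 cyst cell markers, CycB3 and twe of 14 spermatocyte markers, and 0 of 9 germ line, 4 hub, 9 spermatid and 8 sheath and fat markers. The labelled tissue thus could not be checked against germ line genes. The cyst cell factor chinmo had 1312 and 2254 reads in the controls, 1217 and 1210 under cbc, 901 and 989 under PCF11 and 1008 and 1069 under both. The spermatocyte phosphatase twe had 147 and 150 reads in the controls, 116 and 135 under cbc, 80 and 78 under PCF11 and 103 and 78 under both. In these reads, which are not scaled to library totals, all 6 overexpression libraries lay below both controls for chinmo and for twe. For twe that order did not hold as a share of listed reads. There cbc 2 (135 of 244017) lay between control 1 (147 of 258161) and control 2 (150 of 333675). By scaled summed reads, 30.0%, 30.2% and 33.8% of all 523 entries lay below both controls under cbc, PCF11 and both. Those shares take 1 genotype at a time, and the share of entries with all 6 libraries below was not counted. CycB3 ranged from 1226 to 1655 in the controls and from 921 to 1377 elsewhere, and zfh1 from 341 to 508 and from 287 to 474, so both overlapped in unscaled reads. As a share of listed reads zfh1 still overlapped, but CycB3 lay below both controls in all 6 overexpression libraries. The closest were both 1 (1377 of 296166) and control 1 (1226 of 258161). The part of such cells in the results below was not tested.

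The sites are given on BDGP6, with window coordinates as in the deposited tables, and each was placed by the downstream edge of its window. By the middle base of the window, 18 of the 20 lie in an annotated 3' UTR. The others are the distal sites of E(bx)-PA and HIPP1, whose downstream edges lie 25 and 22 bases past the annotated end, which is inside the window. The first and last site of an entry were between 240 bases apart in E(bx)-PA and 1375 bases apart in simj, around a median of 440 bases over all 529 entries. Most of these genes used mainly the most distal site in the controls. Art4, which has 3 sites, instead had 60.4% of its reads at the middle site and 38.1% at the most distal one. The proximal share, the percentage of an entry's listed reads at the site nearest the stop codon, was under 5% in E(bx)-PA, E(bx)-PC, gpp, Art4 and HIPP1. It was 9.69% ± 2.30 in E(Pc), 19.9% ± 9.42 in Asx and 44.5% ± 6.60 in simj (mean ± SD, n = 2 libraries, as throughout). JIL-1 stood at the other end with 84.2% ± 1.53, above 97.7% of the 516 tested entries. The median entry had 19.8%.

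**Figure D1:**
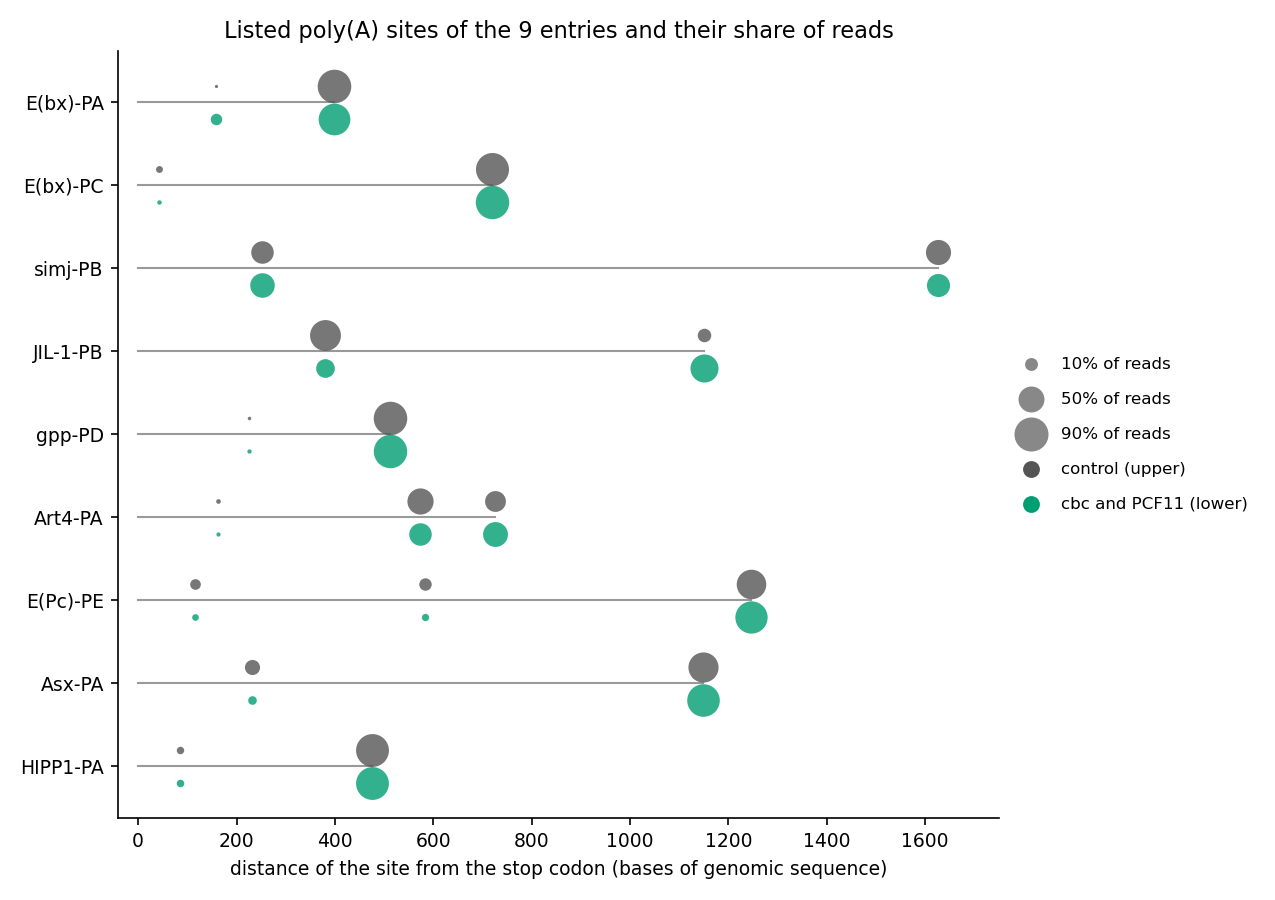
Position of each listed poly(A) site as its distance from the stop codon, in bases of genomic sequence, for the 9 entries. The area of a circle is the mean share of the entry's reads at that site in the 2 control libraries (grey, upper) and in the 2 libraries with both transgenes (green, lower). JIL-1 had most reads at the proximal site in the controls and most at the distal site under both.

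E(bx) encodes NURF301, the largest subunit of the NURF nucleosome remodeller, which slides nucleosomes and whose full-length form carries domains that read histone marks. Its entries end different mRNAs. The entry E(bx)-PA has a proximal window at 3L:234141-234171 and a distal window at 3L:233901-233931, minus strand, 158 and 398 bases past the stop codon of a transcript with 2669 codons, and 7 annotated transcripts end at its distal site. The entry E(bx)-PC lies upstream (proximal 3L:238997-239027, distal 3L:238320-238350) and ends the short transcripts RC and RF, which have 2159 codons in RC.

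The proximal site of E(bx)-PA was close to unused in the controls and took up a share of the reads in every overexpression library. It had 2 of 248 and 1 of 398 reads in the controls, 21 of 298 and 19 of 212 under cbc, 14 of 230 and 25 of 245 under PCF11, and 16 of 245 and 32 of 199 under both. All 6 overexpression libraries lay above both controls, and the 3 overexpression groups overlapped each other. The proximal share was 0.529% ± 0.393 in the controls, 8.0% ± 1.35 under cbc, 8.15% ± 2.91 under PCF11 and 11.3% ± 6.75 under both. The distal site still held most reads in each group. Because the controls had 3 reads at this site, the ratio of pooled shares is uncertain: 16.9 under cbc (95% counting interval 5.38 to 85.3), 17.7 under PCF11 (5.62 to 89.4) and 23.3 under both (7.5 to 117).

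By edgeR's quasi-likelihood test of site usage, adjusted over all 516 entries by Benjamini-Hochberg, usage of the proximal site of E(bx)-PA rose in all 3 comparisons. The log2 odds ratio was 4.06 ± 0.88 under cbc (adjusted p = 0.0250), 4.07 ± 0.88 under PCF11 (adjusted p = 0.0200) and 4.52 ± 0.87 under both (adjusted p = 0.0163), with an approximate SE. The same controls enter each comparison. The proximal window alone, whose reads also enter the usage test, stood at 13.3, 14.1 and 14.7 times the control (edgeR adjusted p = 0.0291, 0.0253 and 0.0199). The distal window did not pass with any transgene (lowest adjusted p = 0.0548, under both). With 2 and 1 reads in the controls, the proximal site met the minimums of reads only through the overexpression libraries. The window test is therefore not separate support for the usage call. The usage call was lost under cbc in all 4 fits that left out 1 library, under PCF11 without control 2, PCF11 1 or PCF11 2, and under both without control 2 or both 2. The highest adjusted p of those fits was 0.152, 0.116 and 0.0944, and the log2 odds ratio stayed between 3.33 and 5.37. The call on the proximal window was lost under cbc without control 2, cbc 1 or cbc 2 (adjusted p up to 0.104), under PCF11 without control 2, PCF11 1 or PCF11 2 (up to 0.153), and under both without control 2 or both 2 (up to 0.162).

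Within the entry of the short transcripts, E(bx)-PC, the proximal site had 16 and 40 reads in the controls, 4 and 8 under cbc, 25 and 10 under PCF11 and 12 and 1 under both, beside 370 to 901 distal reads. The share was 3.80% ± 0.639 in the controls, 1.11% ± 0.514 under cbc, 3.70% ± 1.99 under PCF11 and 1.38% ± 1.57 under both. Both cbc libraries and both double libraries lay below the controls, and the PCF11 libraries lay around them. None of these passed the usage test (adjusted p = 0.178, 0.954 and 0.270 by edgeR). The balance between the short and long transcripts' ends also overlapped between groups. Of the reads of both entries, the short one held 68.1% ± 3.14 in the controls, 68.1% ± 5.41 under cbc, 66.1% ± 2.81 under PCF11 and 65.7% ± 0.857 under both.

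Summed reads of E(bx)-PC, in CPM (listed reads scaled to a common library total with edgeR's TMM factors), were 1862 and 2856 in the controls and 1626 and 1304 under both. Both double libraries lay below both controls, and the change to 0.620 times the control passed (log2 fold change -0.69 ± 0.21, edgeR adjusted p = 0.0212). It was lost without control 2 (log2 fold change -0.35, adjusted p = 0.251) and without both 2 (-0.53, adjusted p = 0.177). The fall was at its distal window, at 0.634 times the control (edgeR adjusted p = 0.0340; 0.0523 with a term for the replicate number, and up to 0.289 without control 2). Under cbc and under PCF11 the summed reads did not pass (adjusted p = 0.459 and 0.274). Those of E(bx)-PA, 1087 ± 171 in the controls and 763 ± 90.1 under both, did not either (adjusted p = 0.0945).

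**Figure D2:**
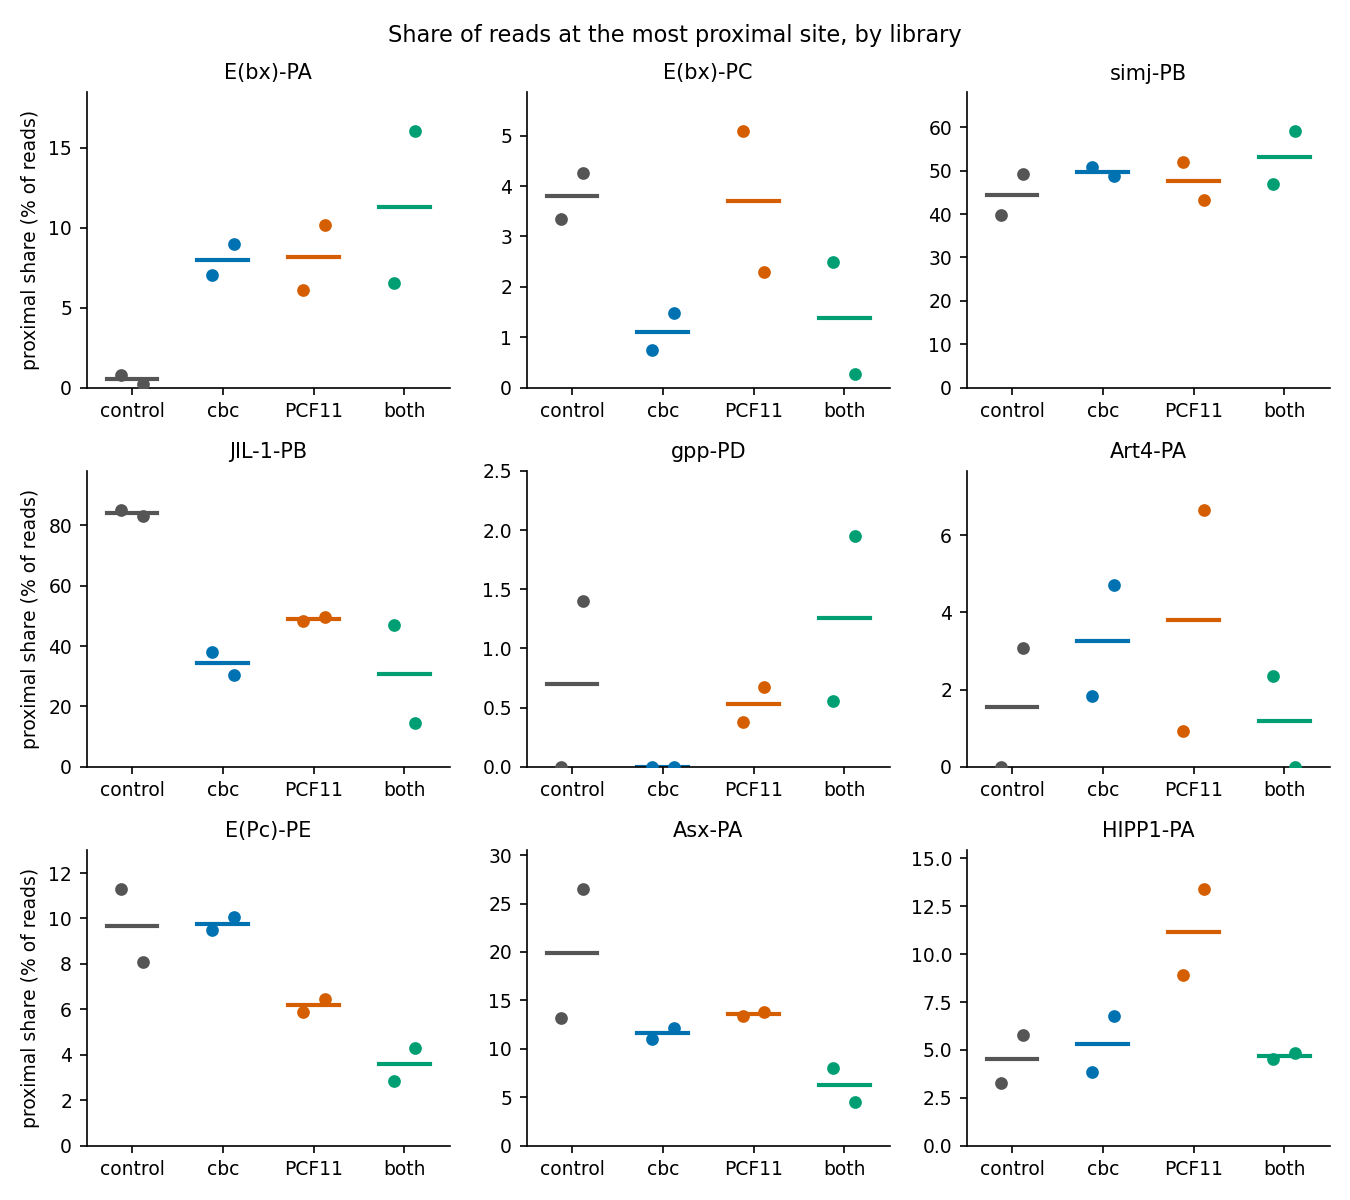
Share of each entry's reads at its most proximal site in percent, by library (points) and group mean (bar), with 2 libraries per group; the vertical scale differs between panels and starts at 0. The overexpression libraries of E(bx)-PA lie above both controls and those of JIL-1-PB below both controls.

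The gene simj encodes the p66 subunit of NuRD, a complex that joins nucleosome remodelling to histone deacetylation. Its sites lie far apart, at 3L:10689331-10689361 and 3L:10690706-10690736 (plus strand, 251 and 1626 bases past the stop codon). Both were used about equally in each group. The proximal site had 244 and 286 reads in the controls, 200 and 188 under cbc, 163 and 167 under PCF11 and 163 and 276 under both. The distal site had 369 and 296, 194 and 198, 150 and 219, and 185 and 190. The proximal share was 44.5% ± 6.60, 49.7% ± 1.45, 47.7% ± 6.23 and 53.0% ± 8.76 in that order, and the control range overlapped each group (adjusted p = 0.695, 0.841 and 0.514 by edgeR).

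The level of simj mRNA ends was lower in all 6 overexpression libraries than in both controls, without passing the test. Summed reads were 2388 and 1766 CPM in the controls, 1366 and 1565 under cbc, 1242 and 1607 under PCF11 and 1174 and 1637 under both. The log2 fold changes were -0.50 ± 0.22, -0.54 ± 0.22 and -0.56 ± 0.22, and the edgeR adjusted p was 0.114, 0.0897 and 0.0599. Between control 1 and control 2 the level differed about as much as between control 2 and several of the other libraries. At the distal window alone the reads fell under both, from 1437 and 898 to 624 and 668 CPM (0.554 times the control, edgeR adjusted p = 0.0311). That call was lost without control 1, both 1 or both 2 (adjusted p up to 0.284).

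JIL-1 is the kinase that phosphorylates histone H3 at serine in the interphase nucleus, keeps heterochromatin from spreading and is enriched on the male X chromosome. Its proximal window is at 3L:11080244-11080274 and its distal window at 3L:11079473-11079503, minus strand, 379 and 1150 bases of genomic sequence past the stop codon. The annotated transcript JIL-1-RB ends within 18 bases of the distal site and has an intron inside its 3' UTR, and the proximal window lies in that intron. It also lies in the 3' UTR of another annotated transcript of the gene, but only JIL-1-RB ends within 50 bases of the distal site. Whether an mRNA that ends at the distal site is spliced there is not shown by 3' end reads.

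JIL-1 had the largest control share at the proximal site among the 9 entries and, in percentage points of mean share, moved furthest toward the distal site. The proximal window had 110 and 123 reads in the controls, 223 and 125 under cbc, 175 and 171 under PCF11, and 81 and 64 under both. The distal window had 19 and 25 reads in the controls, 362 and 284 under cbc, 188 and 173 under PCF11, and 92 and 381 under both. The distal reads of all 6 overexpression libraries lay above both controls, and the double libraries stood apart from each other. The proximal share was 85.3% and 83.1% in the controls, 38.1% and 30.6% under cbc, 48.2% and 49.7% under PCF11, and 46.8% and 14.4% under both. Group means were 84.2% ± 1.53, 34.3% ± 5.34, 49.0% ± 1.06 and 30.6% ± 22.9.

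Proximal usage of JIL-1 fell under cbc (log2 odds ratio -3.34 ± 0.74, edgeR adjusted p = 0.0281) and under both (-3.80 ± 0.78, adjusted p = 0.0188). Under PCF11 the log2 odds ratio was -2.47 ± 0.74 and missed the threshold by edgeR (adjusted p = 0.0728), while DESeq2 called it (adjusted p = 0.0270). The usage call under cbc was lost in all 4 fits without 1 library (adjusted p up to 0.180). That under both was lost without control 1 (0.0540), control 2 (0.0503) or both 2 (0.0838), where the log2 odds ratio was -3.69, -3.93 and -2.59. The PCF11 estimate stayed between -2.59 and -2.35 over its alternatives.

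Taken window by window, the distal site of JIL-1 gained reads. The distal window had 74.0 and 75.9 CPM in the controls, 1255 and 1151 under cbc, 746 and 720 under PCF11, and 310 and 1339 under both. It rose 16-fold under cbc (log2 fold change 4.0 ± 0.50, edgeR adjusted p = 8.59e-06), 9.67-fold under PCF11 (3.27 ± 0.49, adjusted p = 1.02e-04) and 10.9-fold under both (3.45 ± 0.49, adjusted p = 4.98e-05). These calls passed in all 11 alternatives of each comparison, those without 1 library included (highest adjusted p = 0.0187). Under both, the log2 fold change was 2.04 without both 2 and 4.14 without both 1. The proximal window moved less and did not pass: 428 and 373 CPM in the controls, 773 and 507 under cbc, 694 and 712 under PCF11, and 273 and 225 under both. Its edgeR adjusted p was 0.128, 0.0672 and 0.115, so a loss of proximal ends was not shown in any of the genotypes.

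**Figure D3:**
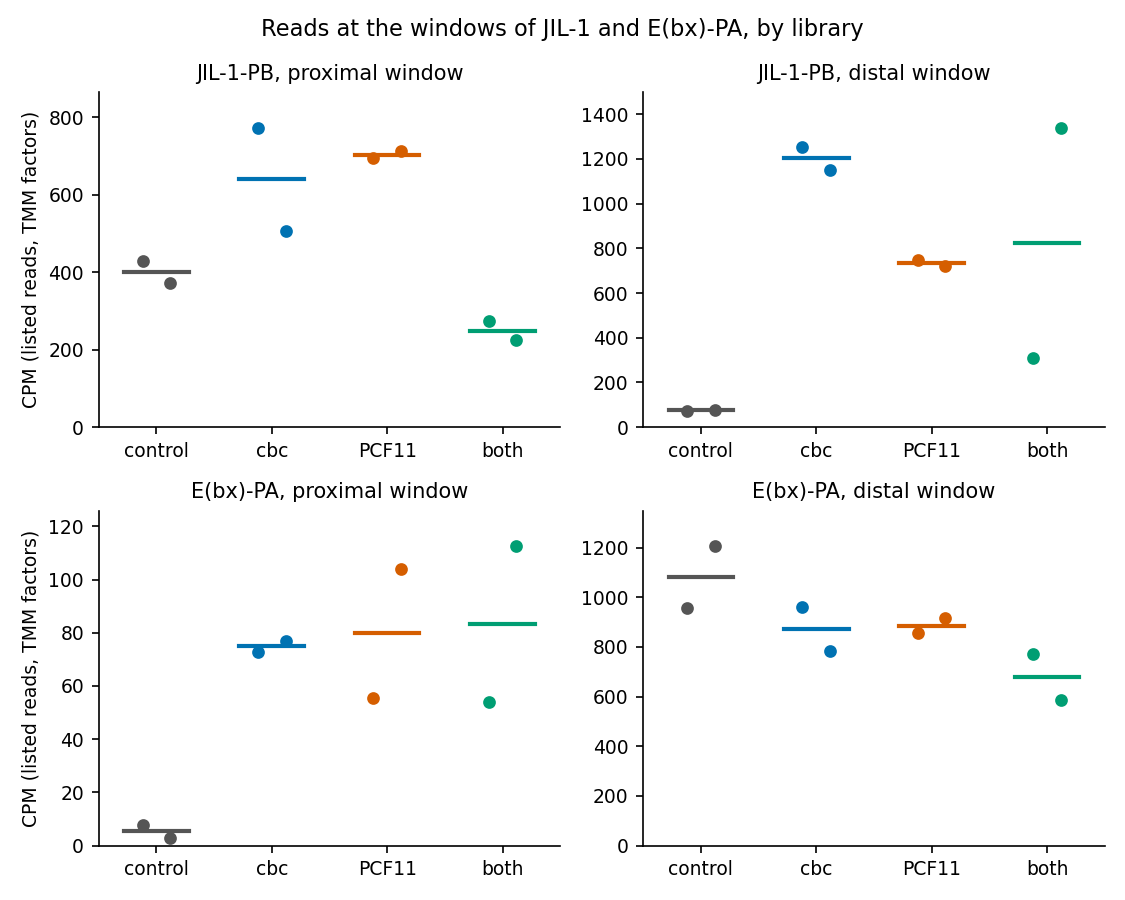
CPM (scaled listed reads, with TMM factors) at the proximal and distal windows of JIL-1-PB and E(bx)-PA, by library (points) and group mean (bar), 2 libraries per group, each axis from 0. The distal window of JIL-1 and the proximal window of E(bx)-PA lay above both controls in all 6 overexpression libraries.

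Summed over its sites, JIL-1 rose in all 3 genotypes. The values were 502 and 449 CPM in the controls, 2028 and 1658 under cbc, 1440 and 1432 under PCF11, and 584 and 1564 under both. All 6 lay above the controls, and the library both 1 was the closest to them. The fold was 3.88 under cbc (log2 fold change 1.96 ± 0.33, edgeR adjusted p = 3.96e-04), 3.02 under PCF11 (1.60 ± 0.33, adjusted p = 0.00215) and 2.26 under both (1.17 ± 0.33, adjusted p = 0.0133). The call under cbc passed in all 11 alternatives. That under PCF11 was lost without PCF11 1 (log2 fold change 1.61, adjusted p = 0.0528). That under both was lost without control 2 (1.09, adjusted p = 0.0676) and without both 2 (0.31, adjusted p = 0.460).

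The gene gpp (grappa) is the fly Dot1, which methylates histone H3 within the nucleosome core, a mark of transcribed genes. Its windows are at 3R:6447688-6447718 and 3R:6447976-6448006, plus strand, 225 and 513 bases past the stop codon of transcript RD. Nearly all reads were distal in every library. The proximal site had 0 and 9 reads in the controls, 0 and 0 under cbc, 2 and 3 under PCF11 and 3 and 10 under both, beside 387 to 635 distal reads. The 0 of 1022 reads under cbc allow a share of up to 0.294%, against 9 of 1031 reads in the controls, which all came from control 2. No usage test passed (adjusted p = 0.188, 0.814 and 0.748 by edgeR), and the intervals and floors cover counting error only. Summed reads were 1731 ± 316, 1891 ± 335, 1970 ± 159 and 1807 ± 11.4 CPM in controls, cbc, PCF11 and both, and overlapped (lowest adjusted p = 0.528).

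Art4 is the fly CARM1, a methyltransferase that acts on arginines of histones and other proteins. Its 3 windows lie at 3R:9983751-9983781, 3R:9983339-9983369 and 3R:9983188-9983218, minus strand, 162, 574 and 725 bases past the stop codon. All of them overlap CG46467 and Glut4EF on the opposite strand, and since the reads were counted without strand, reads of those genes cannot be told apart. The first site had 0 and 12 reads in the controls and 0 to 20 elsewhere. The middle site held 68.1% and 52.7% of the reads in the controls, 37.4% and 46.6% under cbc, 30.4% and 54.3% under PCF11, and 47.3% and 41.7% under both. The most distal site held 31.9% and 44.2%, 60.7% and 48.7%, 68.7% and 39.0%, and 50.4% and 58.3%. Under cbc and under both the most distal share lay above both controls, while under PCF11 it was above both in 1 library (68.7%) and between them in the other (39.0%). Set against the other 2 sites, the most distal site did not pass in any comparison (adjusted p = 0.410, 0.416 and 0.410 by edgeR, where 7.16%, 10.6% and 10.6% of 517 entries passed). Nor did the most proximal site (0.687, 0.637 and 0.880) or the summed reads (lowest adjusted p = 0.267, under both).

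E(Pc), Enhancer of Polycomb, is a subunit of the Tip60 acetyltransferase complex and enhances Polycomb mutations. Its 3 windows lie at 2R:11462120-11462150, 2R:11462589-11462619 and 2R:11463251-11463281, plus strand, 115, 584 and 1246 bases past the stop codon, and its annotated transcript ends further downstream. The first site had 49 and 50 reads in the controls, 44 and 41 under cbc, 19 and 24 under PCF11 and 13 and 16 under both. The middle site had 43 and 103, 19 and 29, 32 and 33, and 25 and 12. The last site had 341 and 467, 400 and 338, 271 and 314, and 417 and 345. The first site thus held 9.69% ± 2.30 in the controls, 9.78% ± 0.386 under cbc, 6.18% ± 0.402 under PCF11 and 3.57% ± 1.01 under both, and under both its share lay below that of all other libraries.

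For E(Pc), both upstream sites lost reads with both transgenes. The first window went from 191 and 152 to 43.9 and 56.2 CPM (0.294 times the control, edgeR adjusted p = 0.0375), and the middle window from 167 and 313 to 84.3 and 42.2 (0.263 times, adjusted p = 0.0247). The last window had 1373 ± 63.1 in the controls and 1310 ± 138 under both. Usage of the first site against the others missed the threshold (log2 odds ratio -1.53 ± 0.44, edgeR adjusted p = 0.0659). The last site against the others, an alternative way to divide the 3 sites, passed under both. It held 78.8% and 75.3% of reads in the controls and 91.6% and 92.5% under both (log2 odds ratio 1.79 ± 0.40, edgeR adjusted p = 0.0239, where 10.6% of 517 entries passed). Under cbc and under PCF11 it held 84.6% ± 2.51 and 84.4% ± 0.336, above both controls in each library, and did not pass (adjusted p = 0.294 and 0.327). The call on the first window was lost without control 1, both 1 or both 2 and with a term for the replicate number (0.0535), and that on the middle window without control 2 or both 2. The adjusted p then reached 0.162 and 0.195.

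Asx, Additional sex combs, is the partner of the deubiquitinase Calypso in the Polycomb complex that removes ubiquitin from histone H2A. Its windows are at 2R:14511552-14511582 and 2R:14512470-14512500, plus strand, 231 and 1149 bases past the stop codon, and 3 annotated transcripts end at the distal one. The proximal site had 34 and 73 reads in the controls, 41 and 29 under cbc, 29 and 29 under PCF11 and 20 and 13 under both. The distal site had 223 and 202, 332 and 209, 188 and 181, and 231 and 277. The proximal share was 13.2% and 26.5% in the controls, so they differed from each other, and 8.0% and 4.5% under both, below both of them. Under cbc it was 11.6% ± 0.844, and under PCF11 it was 13.6% ± 0.315, inside the control range. Usage did not pass (log2 odds ratio -1.87 ± 0.62 under both, edgeR adjusted p = 0.0900; 0.425 under cbc and 0.586 under PCF11). The proximal window alone fell under both to 0.320 times the control (edgeR adjusted p = 0.0488). Of 10 alternatives 2 kept that call; other scalings, no minimum of reads, a term for the replicate number, only the 4 libraries compared, and the fits without control 2, both 1 or both 2 (up to 0.259) lost it.

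HIPP1 is a partner of HP1 and of insulator proteins. Its windows are at 3L:20812933-20812963 and 3L:20813324-20813354, plus strand, 85 and 476 bases past the stop codon, and 4 annotated transcripts end near the distal one. The distal window overlaps CG3618 on the opposite strand, and reads of the 2 genes cannot be told apart there. The proximal site had 23 and 46 reads in the controls, 31 and 39 under cbc, 56 and 76 under PCF11 and 29 and 31 under both, beside 490 to 776 distal reads. The PCF11 libraries held the most proximal reads, with shares of 8.93% and 13.4% against 3.28% and 5.78% in the controls, 3.84% and 6.78% under cbc and 4.55% and 4.83% under both. Only under PCF11 were both libraries above both controls. The shift under PCF11 missed the threshold (log2 odds ratio 1.4 ± 0.45, edgeR adjusted p = 0.0869; 0.814 under cbc and 0.940 under both). PCF11 set directly against cbc (adjusted p = 0.582) and both against PCF11 (adjusted p = 0.992) did not pass either.

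Across the 9 entries, site usage passed in 2 under cbc, 1 under PCF11 and 2 under both, where 7.56%, 10.5% and 10.3% of all 516 entries passed. Toward the proximal site the call was E(bx)-PA in each comparison, where 5.62%, 9.11% and 7.56% of all entries passed in that direction. Toward the distal site it was JIL-1 under cbc and under both, where 1.94% and 2.71% did. The median log2 odds ratio of the 9 entries was 0.04 under cbc, -0.08 under PCF11 and -0.44 under both, beside 0.14, 0.36 and 0.27 over all 516. Groups did not overlap the controls in proximal share for 4 of the 9 entries under cbc, 4 under PCF11 and 5 under both, where 49.6%, 53.1% and 54.7% of all entries did not overlap. Those above the controls were 1, 2 and 1 (28.7%, 36.8% and 32.9% of all entries) and those below 3, 2 and 4 (20.9%, 16.3% and 21.7%). Under both, 1 of these 5 lay above the controls, E(bx)-PA, and 4 below, E(bx)-PC, JIL-1, E(Pc) and Asx.

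**Figure D4:**
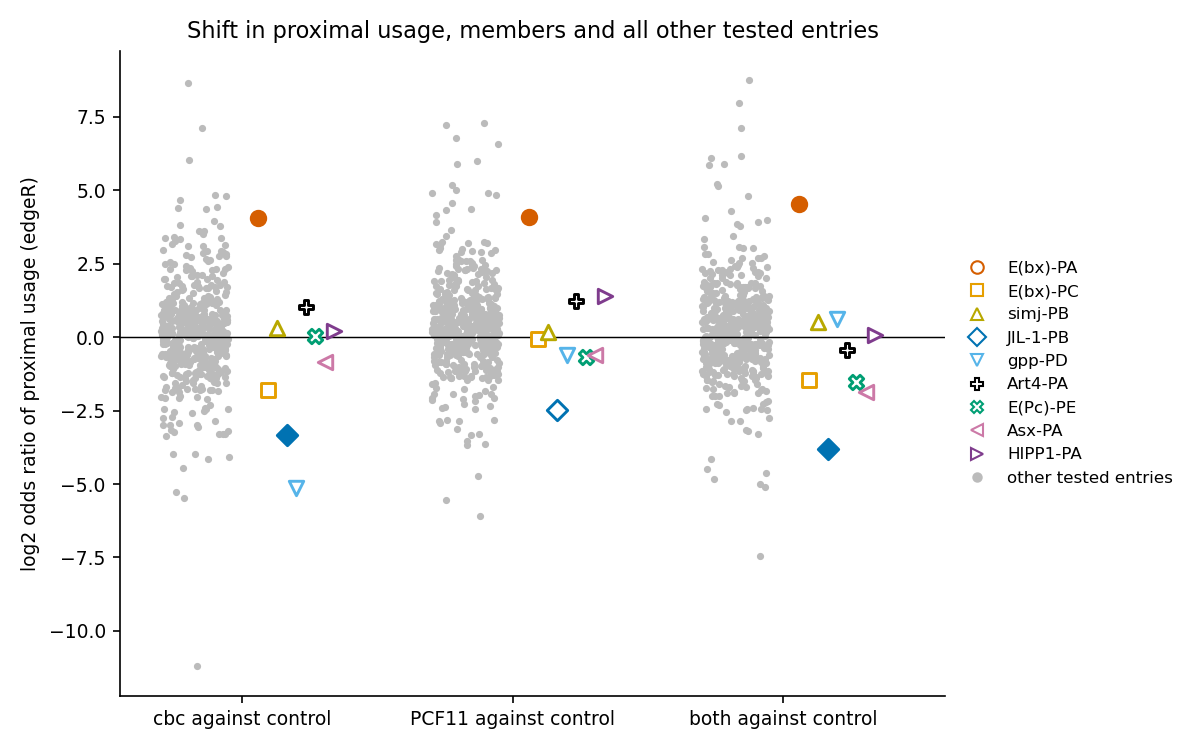
Log2 odds ratio of proximal usage against control (edgeR) for the 9 entries (large symbols, filled where the adjusted p is under 0.05) beside all other tested entries (grey points, spread sideways at random), in 3 comparisons that share the control libraries. Values above 0 are shifts toward the proximal site; E(bx)-PA lies at 4.06 to 4.52 and JIL-1 at -2.47 to -3.80.

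Summed reads passed in 1 of the 9 entries under cbc, 1 under PCF11 and 2 under both, where 23.1%, 21.4% and 32.9% of 523 entries passed. These were JIL-1, higher in each (12.6%, 11.5% and 18.0% of all entries were), and E(bx)-PC, lower under both (14.9% were). The median log2 fold change of the 9 was 0.00, -0.09 and -0.33, beside -0.03, 0.00 and 0.02 over all entries. Both libraries lay below both controls for 2 of the 9 under cbc, 2 under PCF11 and 6 under both, where 30.0%, 30.2% and 33.8% of all entries did. They lay above for JIL-1 in each, where 29.3%, 30.2% and 33.1% did, and in either direction 59.3%, 60.4% and 66.9% did not overlap. By window, 2 of 19 passed under cbc, 2 under PCF11 and 7 under both, where 19.6%, 19.7% and 26.8% of 1015 windows passed. Under both 2 of the 7 were higher, where 15.8% of all windows were, and 5 were lower, where 11.0% were: the first and middle windows of E(Pc), the proximal window of Asx and the distal windows of E(bx)-PC and simj. Fits on only the 4 libraries compared lost calls too. Under both these were usage of E(bx)-PA and of JIL-1, the summed reads of JIL-1, the distal window of E(bx)-PC, the first and middle windows of E(Pc) and the proximal window of Asx, and in each comparison the proximal window of E(bx)-PA.

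**Figure D5:**
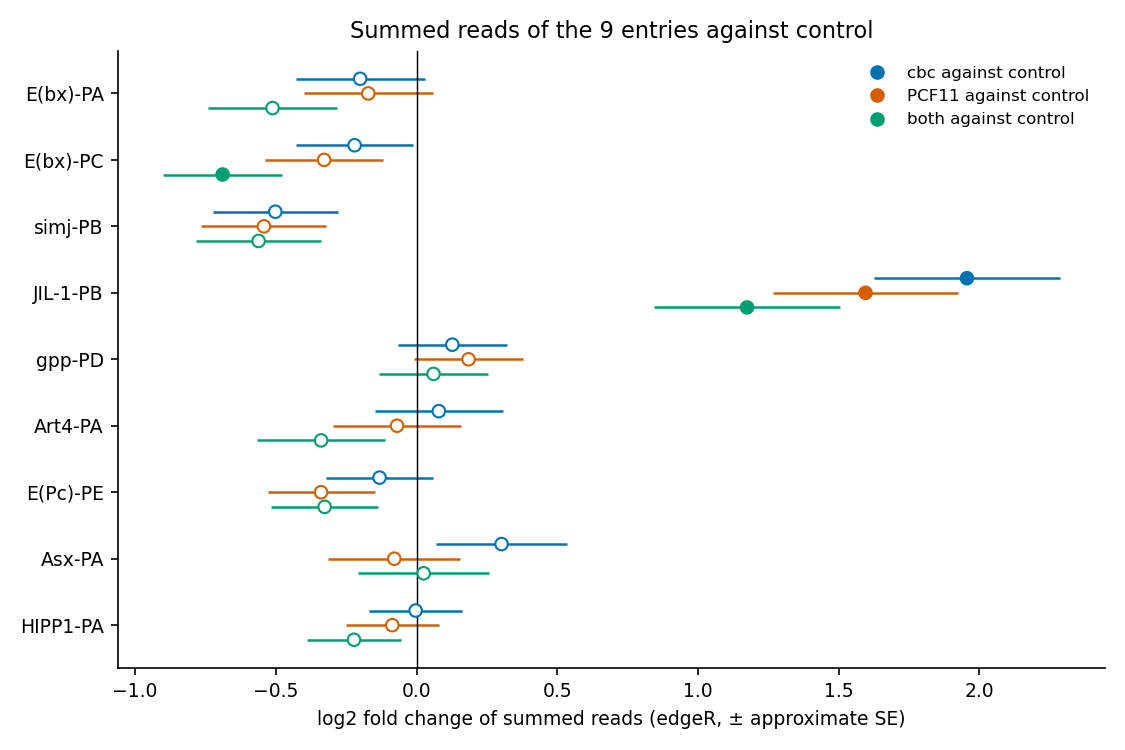
Log2 fold change of summed reads against control for the 9 entries in 3 comparisons, from edgeR with TMM factors; bars are the approximate SE, and filled symbols have an adjusted p under 0.05. JIL-1 lies at 1.96, 1.60 and 1.17, and E(bx)-PC under both at -0.69.

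Set against each other, the overexpression genotypes were not shown to differ in site usage by edgeR. PCF11 against cbc, both against cbc and both against PCF11 gave 0 calls among 516 entries, with 44, 32 and 18 at an unadjusted p under 0.05, and DESeq2 called 5, 4 and 1. Among the 9 entries 1, 2 and 1 had an unadjusted p under 0.05, and the lowest adjusted p was that of E(Pc) under both against cbc (log2 odds ratio -1.56 ± 0.45, adjusted p = 0.360). For E(bx)-PA the log2 odds ratio of both against cbc was 0.46 ± 0.69 and for JIL-1 -0.46 ± 0.72 (edgeR adjusted p = 0.925 for each). Both estimates are smaller than their approximate SE, so with 2 libraries a group they do not show that the genotypes are alike.

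The entries whose pattern was nearest to E(bx)-PA were CG15484-PA, orb-PA and Rop-PA, which were found by the root mean square difference of log2 odds minus the control mean, over the 6 overexpression libraries. The differences were 0.57, 0.65 and 0.85, against a median of 3.86 over 515 entries. In orb, a CPEB protein that controls translation in germ cells, the proximal share went from 1.96% in the controls to 11.7%, 16.7% and 21.0% under cbc, PCF11 and both. For JIL-1 they were CG2765-PC, nudE-PA and CG31523-PC (0.66, 0.80 and 0.93, median 3.64). In nudE, a dynein regulator, the share went from 40.5% to 6.89%, 12% and 8.43%. These are descriptions, made over libraries that share the same controls.

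A list of 138 symbols of other chromatin genes, in which lid and Trl also stand under the synonyms Kdm5 and GAF, was set beside the 8. Of these, 16 had an entry, 17 in all, and they come from Polycomb (Pc, Scm, Sfmbt, Su(z)2, Su(z)12, pho), remodellers (Chd1, Chd3), histone modifiers (NSD, lid, Kdm4A, HDAC4, Su(var)3-3, CoRest), and bin3 and mod(mdg4). Site usage passed in 0 of the 17 under cbc, 0 under PCF11 and 1 under both, beside 7.56%, 10.5% and 10.3% of all entries. That was CoRest, a corepressor that acts with the demethylase Su(var)3-3, toward the distal site (log2 odds ratio -1.48 ± 0.40, edgeR adjusted p = 0.0486). Summed reads passed in 3, 3 and 5 of the 17, beside 23.1%, 21.4% and 32.9% of all entries. The H3K4 demethylase lid was higher in each (log2 fold change 0.57, 0.56 and 0.36, adjusted p = 0.00175, 0.00215 and 0.0278). The Polycomb group gene Su(z)2 was lower (-1.03, -1.0 and -0.75, adjusted p = 0.00306, 0.00465 and 0.0188). The methyltransferase bin3 was lower too (-0.93, -0.82 and -0.74, adjusted p = 1.31e-04, 5.17e-04 and 8.59e-04). HDAC4 (-0.99, adjusted p = 0.00724) and Su(var)3-3 (-0.82, adjusted p = 0.0216) were lower under both. The median log2 odds ratio of the 17 was 0.31, -0.19 and 0.46 under cbc, PCF11 and both.

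The authors' deposited table, from a beta-binomial test of each entry, holds 7 of the 9 entries for cbc and PCF11 and 6 for both. It leaves out E(bx)-PC and gpp in each comparison, and HIPP1 for both. In the authors' deposited table the adjusted p of JIL-1 was 1.10e-06 under cbc, 2.91e-07 under PCF11 and 0.00178 under both, and that of E(bx)-PA was 1.75e-05, 9.38e-05 and 0.00167. The authors' deposited table also gives 0.00378, 0.00269 and 1.30e-05 for E(Pc), 0.00286 for HIPP1 under PCF11, 0.00888 for Asx under both, and 0.0144 and 0.0114 for Art4 under cbc and under both. These are p-values of the authors' test. The edgeR test of the first site against the others did not call JIL-1 under PCF11, nor E(Pc), HIPP1, Asx or Art4 in any comparison. For E(Pc) the last site against the others did pass under both (edgeR adjusted p = 0.0239). For Art4 the authors' deposited table gives a control proximal share of 61.2%, which is a different division of its 3 sites than the first against the others. For simj the adjusted p in the authors' deposited table was 0.167, 0.619 and 0.125.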

How the data were processed

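Libraries were made with the Lexogen QuantSeq FWD kit, per the labels' protocols, and Bowtie and SAMtools with dm6/BDGP6 are named in the submitters' processing notes. The authors deposited raw read counts per listed site, made with PolyA-miner per the log of its run: 30 bp windows, a supplied list of 1098 sites, strand setting 0, no molecular identifiers, a BDGP6.28 fasta. That list is named for bam against spermatocytes. Whether its sites were picked for a difference between those was not tested. The authors' deposited tables also hold the fraction of proximal reads, an index (score) of distal use and an adjusted p-value per entry, used only where named. The control columns of the 3 count tables were identical, so 8 libraries entered 1 joint set of 1082 windows.

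The proximal-most site was compared with all more distal ones, on counts, with edgeR 4.0.16 (quasi-likelihood, R 4.3.3), with a term per library, the site and site by genotype. Entries needed a mean of 10 reads per library and, summed over all libraries, 5 reads on each side. Summed reads (mean of 10) and windows (mean of 5) were tested with TMM factors. P-values were adjusted by Benjamini-Hochberg over all tested features, threshold 0.05. The approximate SE is the coefficient over the root of F. Shares have 95% exact (Clopper-Pearson) intervals or exact conditional ratio intervals, for counting error only; a count of 0 allows up to 3 reads. Likeness used a pseudocount of 0.5. Both kinds of test were first checked on simulated counts in which 200 entries changed. Those counts had the same spread for every feature, so they do not cover sparse sites whose duplicates differ. No result here rests on that check. Replicate numbers do not pair the libraries by any label. Alternatives were DESeq2 1.42.0, other scalings and minimums, the most distal site against the others, a replicate block, only the 4 libraries compared, and each library left out. Sites were placed with an Ensembl BDGP6 annotation, whose gene ends equalled those of the authors' list for 99.6% of 17017 genes matched by symbol. The rule for named genes was every entry of the 8 genes, the other chromatin genes that passed in usage or summed reads, and 3 nearest entries. Members, lists and rules were chosen with earlier results of these data known. The other chromatin genes and markers come from textbook knowledge.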

Additional observations from a re-analysis of the deposited data

How the results depend on the processing

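EdgeR's count of entries passing in usage was 39 with cbc, 54 with PCF11 and 53 with both, and moved most with the choice of libraries. It was 23, 29 and 15 on only the 4 libraries compared, and 3 to 25, 12 to 49 and 7 to 44 without 1 library. DESeq2 called 62 with cbc, and 5, 4 and 1 for PCF11 against cbc, both against cbc and both against PCF11. Summed reads passed in 68 to 144, 46 to 121 and 95 to 163 entries without 1 library, and windows in 111 to 200, 97 to 182 and 117 to 237; on only the 4 libraries, 179 windows passed with both. Among the 8 genes, usage calls came to 0, 0 to 1 and 0 to 2 without 1 library, 2 for PCF11 by DESeq2 and 0 for both on the 4 libraries. Their summed calls were 0 to 2 with PCF11 and 1 to 2 with both without 1 library, and 1 with both on the 4 libraries. Their window calls were 1 to 2, 1 to 2 and 1 to 6 without 1 library. With a mean of 50 reads they were 1, 1 and 4, and on the 4 libraries 1, 1 and 2. Fewer libraries and fewer windows tested lie behind these settings by construction; the cause of the other changes was not tested.

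Deviations of same-numbered libraries correlated by -0.05 to 0.06 over 523 entries, so the numbers were not taken as pairs. With a replicate block, usage passed in 26, 41 and 42 entries, summed reads in 115, 100 and 144, windows in 174, 177 and 242, and 4 windows of the 8 genes with both. The 3 lost were the first window of E(Pc) (adjusted p = 0.0535), the proximal window of Asx (0.0726) and the distal window of E(bx)-PC (0.0523). Single values of the 8 genes with an unadjusted p under 0.05 kept their direction under the alternatives: 384 stayed on their side of the threshold, 58 lost and 8 gained a call. Of the remaining usage estimates 24 of 39 changed sign in some alternative, and so did 10 of 19 for summed reads and 18 of 37 for windows. None of those in usage, 1 in summed reads and 1 in windows passed anywhere. Depth limits E(bx)-PA, with 3 control reads at its proximal site, and gpp.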
